A study of Mus musculus with 8 samples.

Results

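The genes described here encode the surrogate light chain and the pre-B cell receptor with its first signalling proteins: Vpreb1, Vpreb2, Vpreb3, Igll1, Cd79a, Cd79b, Blnk, Syk and Btk. They were taken by name from the array's own gene names, with every non-control probe of a listed gene kept. Of the 9 listed genes, 7 were found this way with 8 probes. Syk's probe carries the older name Sykb in the files and was added by its accession, which made 9 probes of 8 genes out of 39429 probes on the array. Igll1 had no probe under its name and is not analysed here. All 9 probes passed the filter on low signal, and each was well above background, and none saturated, on all 8 arrays.

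The study measured RNA of mouse pro-B cells on 8 Agilent arrays of 1 colour (Cy3), 2 arrays for each of 4 groups. Fetal liver (FL) cells with let-7b carried a let-7b retrovirus, and FL empty-vector cells carried MSCV, both sorted from pools of embryos at gestation day 16, on average 8 embryos per sort. Bone marrow (BM) cells with Lin28b carried a Lin28b retrovirus, and BM empty-vector cells carried pMIG, both sorted from adult mice, 2 per sort. All 4 groups shared the BALB/c Rag1 null background, culture on OP9 stromal cells with IL-7, and a sort for GFP, the marker of transduced cells, 4 days after transduction. The 2 arrays of a group come from separate sorts per the study's design text, so the errors are those between sorts of pooled cells that were cultured and transduced. FL and BM cells differed in tissue, age of the donor, vector, slide and scan together, which cannot be told apart.

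The pre-B cell receptor is the checkpoint that tests whether a developing B cell has made a working immunoglobulin heavy chain. VpreB and lambda5 proteins (Vpreb1, Vpreb2 and Igll1) stand in for a light chain, Ig-alpha and Ig-beta (Cd79a and Cd79b) carry the signal across the membrane, and Syk, Blnk and Btk pass it on. Pro-B cells transcribe these genes before a heavy chain exists, and cells without Rag1 cannot assemble one, so the proteins cannot form a complete receptor in them.

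Lin28b blocks the maturation of let-7 miRNAs, which pair with their targets through the seed. The mature let-7b sequence (RefSeq, build GRCm38.p6, chr15:85707325-85707346, plus strand) is shown with its seed, bases 2 to 8, in capitals, as it is the agent given to the FL cells.
let-7b: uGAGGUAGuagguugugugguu

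Vpreb1 and Vpreb2 are near-identical copies on chromosome 16, so the probes' ability to separate them matters for every value below. The Vpreb1 probe lies at chr16:16868559-16868618 (minus strand) and the Vpreb2 probe at chr16:17981114-17981173 (plus strand), both in build mm9 as given by the files. The files list transcripts of both genes for the Vpreb2 probe, so its signal is uncertain as to the copy. That probe is shown 5′ to 3′ with the stop codon that ends its open reading frame in capitals.
Vpreb2 probe: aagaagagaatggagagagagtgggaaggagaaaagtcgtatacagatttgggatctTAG

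The likeness of the copies extends upstream of the coding sequence. In the RefSeq promoter windows (250 bases before to 50 after a gene's start, GRCm38.p6), which were found for 8 of the 9 genes, a stretch of 106 bases was 98.1% identical between Vpreb1 and Vpreb2. It lies at chr16:16869256-16869361 (minus strand), -106 to -1 from the Vpreb1 start, and at chr16:17980315-17980420 (plus strand), -250 to -145 from the Vpreb2 start. It differed at 2 positions, G12T and C104T, with the Vpreb1 base first and positions counted from 1 at the 5′ end. The shared CAGGTG, a match to the E-box motif CANNTG, is in capitals.
Vpreb1 promoter stretch: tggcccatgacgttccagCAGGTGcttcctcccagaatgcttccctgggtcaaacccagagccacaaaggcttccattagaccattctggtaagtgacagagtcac
Vpreb2 promoter stretch: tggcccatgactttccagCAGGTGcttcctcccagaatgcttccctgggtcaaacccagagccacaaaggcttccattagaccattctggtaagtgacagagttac

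The promoter windows were read for 4 motifs of B cell transcription factors on both strands. CANNTG was found in 8 of the 8 member genes and in 72.3% of 32851 windows, and GGGAA, the core bound by Ikaros proteins, in 7 of the 8 and in 62.7% of windows. CCCNNGGG, the core palindrome bound by Ebf1, was found in 1 member gene, Igll1, and in 13.7% of windows. The octamer ATTTGCAT, which Oct proteins bind, was found in 2 of the 8, Vpreb3 and Blnk, and in 1.74% of windows. The first base of the octamer lay at -45 in Vpreb3 (stretch chr10:75948215-75948299, plus strand) and at -130 in Blnk (stretch chr19:40994304-40994391, minus strand), and it is in capitals below. In the Vpreb2 window 1 GGGAA match, on the opposite strand, shared a base with an E-box, and 2 E-boxes of the Vpreb3 window overlapped; each was counted for its own motif. A match describes the letters only.
Vpreb3 promoter stretch: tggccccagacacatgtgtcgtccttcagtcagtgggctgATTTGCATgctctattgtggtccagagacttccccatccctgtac
Blnk promoter stretch: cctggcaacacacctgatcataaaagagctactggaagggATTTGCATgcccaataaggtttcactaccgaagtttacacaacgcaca

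Levels below are log2 of a probe's processed signal minus the log2 of its array's 75th percentile signal, so that 0 is the signal at that percentile and 1 unit is a doubling. A probe is called where limma's adjusted p (Benjamini-Hochberg over the 28410 probes tested) was under 0.05, and ± after a difference is limma's standard error. An array's 75th percentile signal was 271.5 to 487.9 on the 4 FL arrays and 1924.9 to 2234.3 on the 4 BM arrays, with FL empty vector 2 the dimmest. The median SD over probes was 0.22 in FL let-7b, 0.28 in FL empty-vector, 0.07 in BM Lin28b and 0.08 in BM empty-vector cells. A Lin28b probe (A_52_P532355) lay at 0.35 and 0.07 in BM Lin28b cells, against -9.16 and -8.85, not well above background, in BM empty-vector cells. That is at least 137-fold higher (adjusted p = 0.00174, limma), while the other Lin28b probe (A_55_P1970905) lay at -5.86 and -5.75 in BM Lin28b cells, against -6.58 and -6.32 in BM empty-vector cells (adjusted p = 1). Rag1 probes gave signal on all arrays, and whether they lie in the deleted part was not analysed here. All 12 pro-B cell markers were well above background in all 4 groups. Since these are bulk samples, fewer cells of a type and less RNA per cell cannot be told apart.

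**Figure D1:**
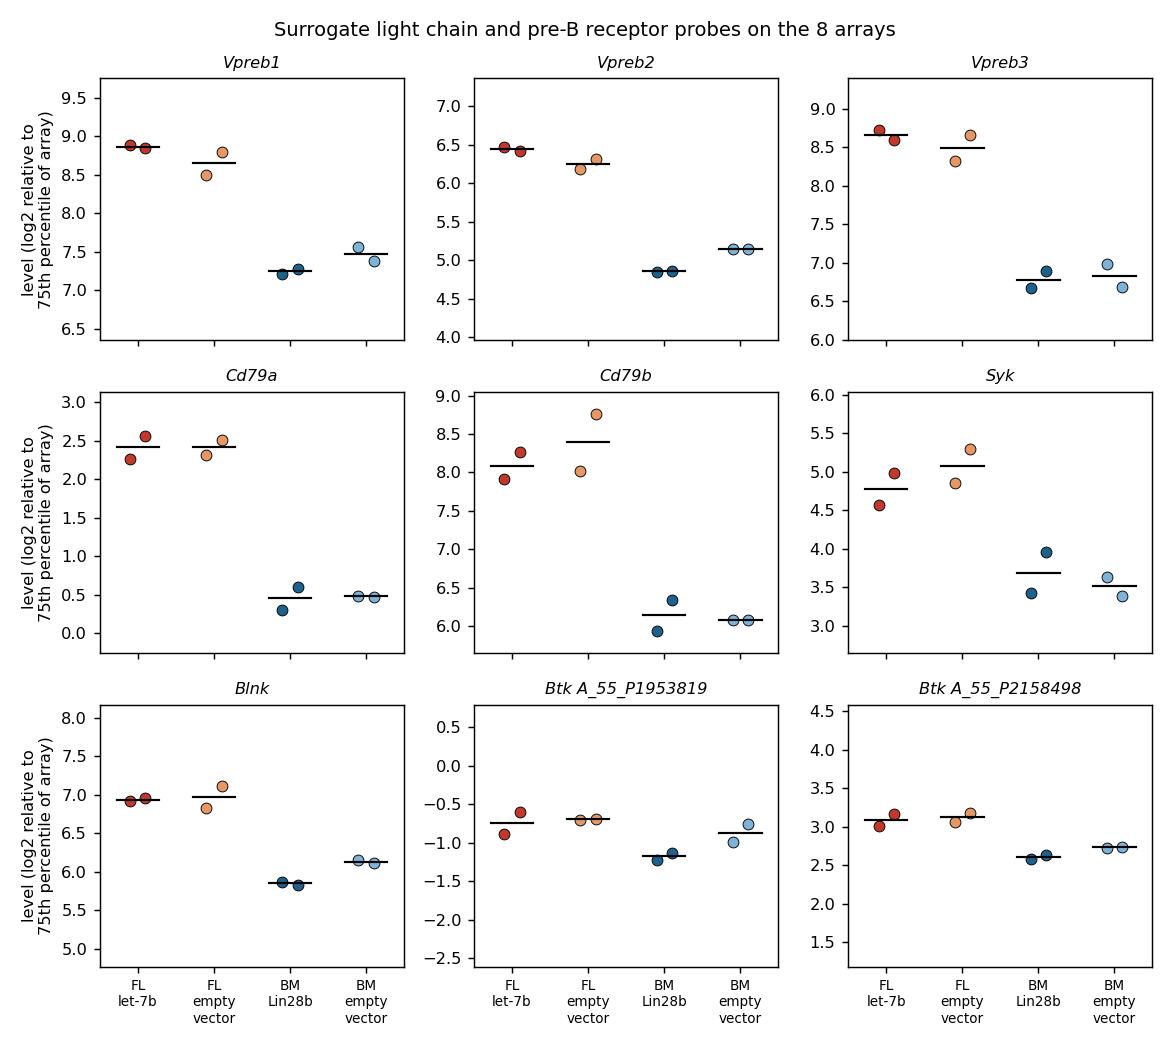
Level of each of the 9 probes on each array (vertical axis, log2 relative to the array's 75th percentile), 1 panel per probe, with FL let-7b, FL empty-vector, BM Lin28b and BM empty-vector arrays from left to right; points are arrays and bars are group means (n = 2). All FL points lie above all BM points for every probe but Btk A_55_P1953819.

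FL empty-vector cells had higher levels of the surrogate light chain genes than BM empty-vector cells under the 75th percentile scaling. Vpreb1, which encodes the VpreB chain, lay at 8.89 and 8.84 in FL let-7b and at 8.50 and 8.80 in FL empty-vector cells, against 7.21 and 7.28 in BM Lin28b and 7.56 and 7.38 in BM empty-vector cells. Vpreb2, its copy, lay at 6.47 and 6.42 in FL let-7b and at 6.18 and 6.32 in FL empty-vector cells, against 4.85 and 4.86 in BM Lin28b and 5.15 and 5.14 in BM empty-vector cells. No pair of groups overlapped for either gene, and both had the same order, with BM Lin28b lowest, then BM empty vector, FL empty vector and FL let-7b. Vpreb3, a related protein that binds newly made immunoglobulin chains in early B cells, lay at 8.72 and 8.60 in FL let-7b and at 8.32 and 8.66 in FL empty-vector cells, against 6.67 and 6.89 in BM Lin28b and 6.98 and 6.69 in BM empty-vector cells. Vpreb3 kept that order of means, but only the tissues stood apart, and the groups of each tissue overlapped.

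Between FL and BM empty-vector cells, Vpreb1 differed by 1.18 ± 0.15 (95% interval 0.80 to 1.56, adjusted p = 0.00198, limma), a 2.26-fold higher scaled signal. Vpreb2 differed by 1.10 ± 0.12 (adjusted p = 0.00118, limma) and Vpreb3 by 1.65 ± 0.19 (adjusted p = 0.00133, limma). The median of all probes was itself shifted by 0.47 under this scaling, so the differences beyond that shift were 0.71 for Vpreb1, 0.63 for Vpreb2 and 1.18 for Vpreb3. That shift was not the same at every level. Among probes as bright as those of Vpreb1 and Vpreb3 the median was 1.44, and at the level of Vpreb2 it was 0.35. Against probes of like level Vpreb1 thus lay below the median, and Vpreb3 and Vpreb2 above it. With quantile scaling, which brings that median to -0.00, Vpreb1 was at -0.48, lower in FL cells (adjusted p = 0.0176, limma), Vpreb2 at 0.52 (adjusted p = 0.0112) and Vpreb3 at 0.18 (adjusted p = 0.265). The direction for Vpreb1 thus flips with the scaling, and so does that of Blnk below.

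The receptor's signal-carrying pair, Cd79a and Cd79b, had the largest differences of the members between the tissues under the 75th percentile scaling. Cd79a (Ig-alpha) lay at 2.26 and 2.57 in FL let-7b and at 2.32 and 2.51 in FL empty-vector cells, against 0.31 and 0.60 in BM Lin28b and 0.49 and 0.47 in BM empty-vector cells. Cd79b (Ig-beta) lay at 7.92 and 8.26 in FL let-7b and at 8.02 and 8.76 in FL empty-vector cells, against 5.94 and 6.35 in BM Lin28b and 6.09 and 6.09 in BM empty-vector cells. For both genes every FL array was above every BM array, and the 2 groups of a tissue overlapped. Cd79a was 3.83-fold higher in FL than in BM empty-vector cells (1.94 ± 0.18, adjusted p = 0.00088, limma) and Cd79b 4.93-fold higher (2.30 ± 0.29, adjusted p = 0.00178, limma). Both calls were also made with quantile scaling, at 1.91 for Cd79a (adjusted p = 0.000805) and 1.04 for Cd79b (adjusted p = 0.00779). The Cd79a probe is shown because its span in mm9, chr7:25684357-25684614 (plus strand), is 258 bases for a probe of 60, wider than those of the other members.
Cd79a probe: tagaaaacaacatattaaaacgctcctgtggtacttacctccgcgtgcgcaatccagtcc

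Of the signalling proteins, Syk, the kinase that binds the phosphorylated tails of Cd79a and Cd79b, lay at 4.57 and 4.98 in FL let-7b and at 4.86 and 5.29 in FL empty-vector cells, against 3.42 and 3.96 in BM Lin28b and 3.63 and 3.39 in BM empty-vector cells. Its FL arrays were all above its BM arrays, and it was 2.97-fold higher in FL than in BM empty-vector cells (1.57 ± 0.27, adjusted p = 0.00478, limma), or 1.28 with quantile scaling (adjusted p = 0.00658). Blnk, the adaptor that Syk phosphorylates, lay at 6.92 and 6.96 in FL let-7b and at 6.83 and 7.11 in FL empty-vector cells, against 5.87 and 5.83 in BM Lin28b and 6.16 and 6.11 in BM empty-vector cells. Blnk differed by 0.83 ± 0.14 between FL and BM empty-vector cells (adjusted p = 0.00443, limma) but by -0.13 with quantile scaling (adjusted p = 0.404), so its direction flips and its call is lost with that scaling.

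Btk, the kinase that Blnk brings to its substrates, has 2 probes whose starts lie 6960 bases apart on chromosome X in mm9. The probe A_55_P2158498 (chrX:131076995-131077054, minus strand) lay at 3.01 and 3.16 in FL let-7b and at 3.06 and 3.18 in FL empty-vector cells, against 2.58 and 2.63 in BM Lin28b and 2.72 and 2.74 in BM empty-vector cells. The probe A_55_P1953819 lay at -0.89 and -0.60 in FL let-7b and at -0.70 and -0.69 in FL empty-vector cells, against -1.22 and -1.13 in BM Lin28b and -0.99 and -0.76 in BM empty-vector cells. The first probe's FL and BM arrays did not overlap, whereas the second's did between FL let-7b and BM empty vector. Between FL and BM empty-vector cells, the first differed by 0.39 ± 0.13 (adjusted p = 0.0389, limma) and was no longer called with quantile scaling (0.27, adjusted p = 0.0877). The second differed by 0.18 ± 0.16 (95% interval -0.21 to 0.58, adjusted p = 0.349, limma). Both lie below the shift of 0.47 of all probes, though not below the median of probes of like level. The second is shown, at chrX:131083955-131084014 (minus strand, mm9), as the member probe whose difference did not pass the test.
Btk probe: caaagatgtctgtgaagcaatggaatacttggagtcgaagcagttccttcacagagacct

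In all, 8 of the 9 probes were called higher in FL than in BM empty-vector cells and 0 lower, against 39.1% of all probes tested called higher and 58.9% called in either direction. All 9 stood apart between the 2 groups on the higher side, against 53.7% of all probes on that side and 82.6% on either side. The median difference of the members was 1.18 and that of all probes 0.47, and 7 of the 9 lay above 0.47. With quantile scaling 4 were called higher (Vpreb2, Cd79a, Cd79b and Syk) and 1 lower (Vpreb1), against 24.5% and 27.3% of all probes. Over all probes, 11114 were called higher and 5620 lower, but 6955 higher and 7759 lower with quantile scaling. In unscaled signal all 9 probes were dimmer in FL than in BM empty-vector cells, with an FL to BM ratio of 0.203 (Btk A_55_P1953819) to 0.882 (Cd79b). The FL arrays as a whole were also dimmer than the BM arrays.

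**Figure D2:**
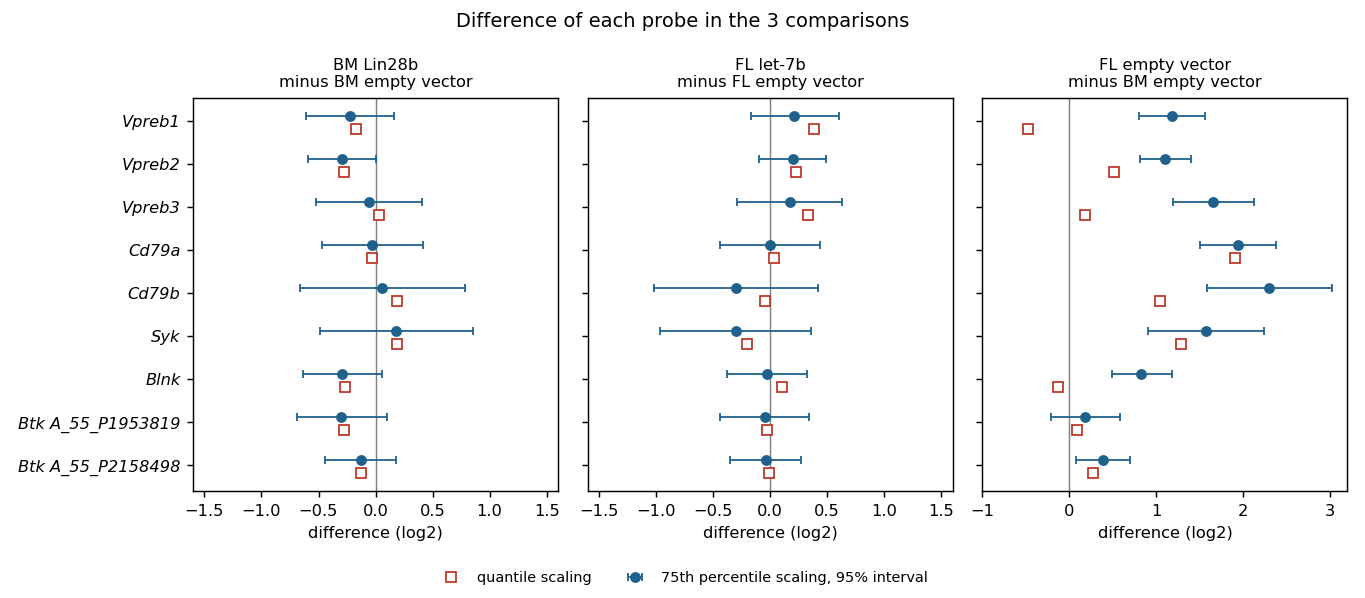
Difference in log2 level of each of the 9 probes in 3 comparisons, from left to right BM Lin28b minus BM empty vector, FL let-7b minus FL empty vector and FL empty vector minus BM empty vector; filled points with bars are the 75th percentile scaling with 95% intervals from limma's fit, and open squares the values with quantile scaling. The intervals of the 9 probes include 0 with let-7b and with Lin28b, while the values of Cd79a, Cd79b and Syk lie above 1 between the tissues under both scalings.

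Over all probes the tissue difference varied with the level of a probe. Among the 943 probes with a mean level above 6 over the empty-vector arrays, the median difference was 1.44, and among the 1244 probes between 4 and 6 it was 0.35. It was 0.05 between 2 and 4, -0.05 between 0 and 2, and 0.07 between -2 and 0. Among dim probes it was higher again, at 0.62 for the 5319 probes between -4 and -2 and 1.22 for the 8667 probes below -4, where no member lies. Vpreb1, Vpreb3, Cd79b and Blnk fall in the highest range, where Vpreb3 (1.65) and Cd79b (2.30) lay above the range's median of 1.44 and Vpreb1 (1.18) and Blnk (0.83) below it. The quartiles of that range were 1.05 and 1.82. Vpreb1 and Vpreb3 lay between them, Cd79b above and Blnk below. Vpreb2 (1.10) and Syk (1.57) exceeded the median of their range, 0.35, and Cd79a (1.94) that of its own, -0.05. These 3 genes were called higher under both scalings, as was Cd79b of the highest range. The Btk probes lay above the medians of their ranges by less, at 0.39 against 0.05 for A_55_P2158498 and at 0.18 against 0.07 for A_55_P1953819. Both lay between the quartiles of their ranges, -0.51 to 0.64 and -0.69 to 0.90. The members thus did not follow the order of the range medians, since Cd79a, at a lower level, differed more than Vpreb1 and Blnk.

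**Figure D3:**
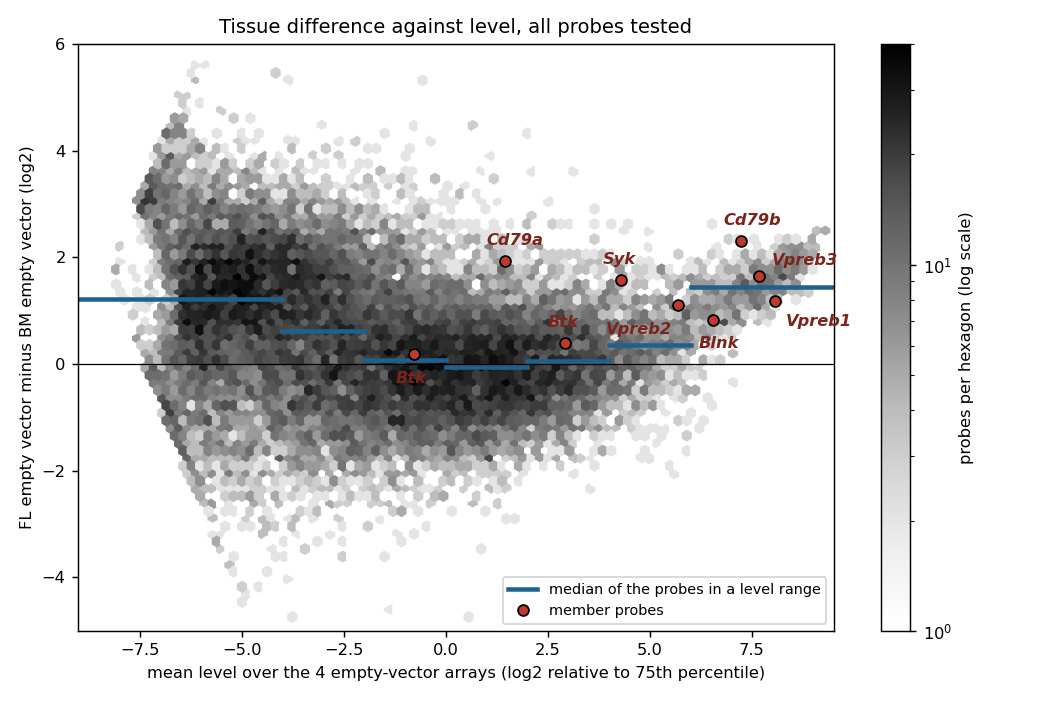
Difference in log2 level between FL and BM empty-vector cells (vertical axis) against the mean level over the 4 empty-vector arrays (horizontal axis, log2 relative to the 75th percentile) for all probes tested, shaded by the number of probes per hexagon on a log scale; blue bars are medians of a level range and red points the 9 member probes. The median is 1.44 above a level of 6, near 0 between -2 and 4, and 1.22 below -4; of the 9 member probes only those of Vpreb1 and Blnk lie below the bar of their range.

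A difference between 2 member probes within an array cannot be moved by a single factor per array, such as the 75th percentile. It is not free of a scaling that treats levels unequally, so values with quantile scaling stand beside it. Cd79b minus Vpreb1 was -0.97 and -0.58 in FL let-7b and -0.48 and -0.04 in FL empty-vector cells, against -1.27 and -0.93 in BM Lin28b and -1.48 and -1.29 in BM empty-vector cells. The groups with an empty vector did not overlap, and the mean was 1.12 higher in FL than in BM empty-vector cells (1.52 with quantile scaling). FL let-7b and BM Lin28b did overlap, at -0.97 against -0.93. Cd79a minus Vpreb1 was -6.63 and -6.26 in FL let-7b and -6.18 and -6.29 in FL empty-vector cells, against -6.91 and -6.68 in BM Lin28b and -7.08 and -6.91 in BM empty-vector cells. Its mean was 0.76 higher in FL than in BM empty-vector cells, again without overlap (2.39 with quantile scaling). Cd79a minus Vpreb3 was -6.46 and -6.03 in FL let-7b and -6.00 and -6.15 in FL empty-vector cells, against -6.36 and -6.29 in BM Lin28b and -6.49 and -6.22 in BM empty-vector cells. Here the FL let-7b arrays overlapped the BM arrays, and the FL minus BM difference of the empty-vector means was 0.28 (1.72 with quantile scaling). Syk minus Btk (A_55_P2158498) was 1.56 and 1.82 in FL let-7b and 1.80 and 2.11 in FL empty-vector cells, against 0.85 and 1.33 in BM Lin28b and 0.90 and 0.66 in BM empty-vector cells, a mean 1.18 higher in FL than in BM empty-vector cells (1.01 with quantile scaling). Vpreb1 minus Vpreb2 stayed between 2.24 and 2.48 on all 8 arrays, with means that differed by 0.07 between the tissues. With quantile scaling its mean was 1.92 in FL empty-vector and 2.92 in BM empty-vector cells, so the steady difference between the probes was not seen with that scaling. The exact permutation test of 2 against 2 arrays cannot go below p = 0.333, so these are values with no call.

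**Figure D4:**
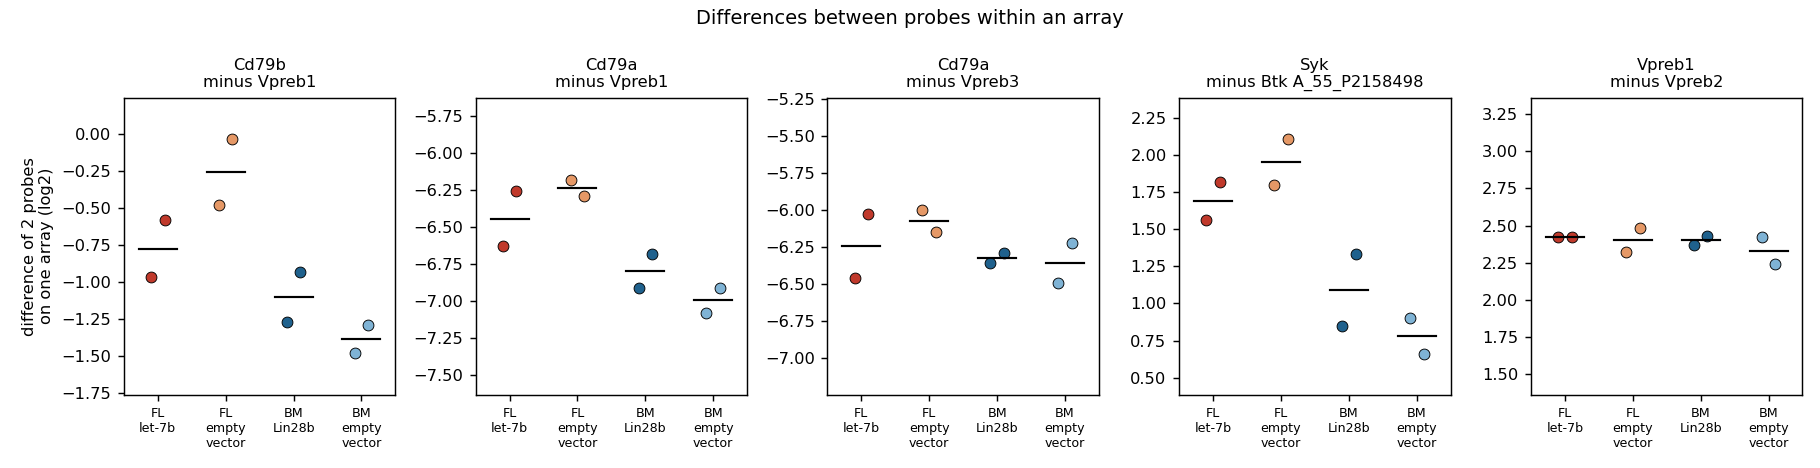
Difference between 2 member probes on the same array (vertical axis, log2) for 5 pairs of probes under the 75th percentile scaling; points are arrays, bars are group means (n = 2), with FL let-7b, FL empty vector, BM Lin28b and BM empty vector from left to right. Cd79b minus Vpreb1, Cd79a minus Vpreb1 and Syk minus Btk are higher in FL than in BM empty-vector cells without overlap. The FL let-7b arrays overlap the BM arrays for Cd79a minus Vpreb3 and the BM Lin28b arrays for Cd79b minus Vpreb1. Vpreb1 minus Vpreb2 lies between 2.24 and 2.48 throughout.

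Lin28b in adult BM cells addresses whether the fetal factor moves these genes away from their adult levels. No member was called: 0 of the 9 probes, against 0.00352% of all probes, which is 1 probe, that of Lin28b itself. At an unadjusted p under 0.05 from limma the counts were 0 of the 9 and 3.46% of all probes. Vpreb1 was at -0.22 ± 0.15 (95% interval -0.61 to 0.16), Vpreb2 at -0.29 ± 0.12 (-0.59 to 0.00) and Blnk at -0.29 ± 0.14 (-0.64 to 0.06) in BM Lin28b relative to BM empty-vector cells, each with an adjusted p of 1 (limma). The Btk probes were at -0.30 ± 0.16 (A_55_P1953819) and -0.13 ± 0.13 (A_55_P2158498). These 5 probes had both Lin28b arrays below both empty-vector arrays, against 33.3% of all probes on that side and 51% on either side. On the higher side 0 of the 9 stood apart, against 17.8% of all probes. Vpreb3 (-0.06 ± 0.19), Cd79a (-0.03 ± 0.18), Cd79b (0.06 ± 0.29) and Syk (0.18 ± 0.27) overlapped between the groups. The median over the members was -0.13 and over all probes -0.04. A missed call between 2 and 2 arrays does not show that a level was the same.

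For let-7b in FL cells the question is the reverse, whether the miRNA moves them away from their fetal levels. Again 0 of the 9 probes were called, against 0.0246% of all probes, or 7 probes, and 0 of the 9 had an unadjusted p under 0.05 from limma, against 9.64%. Vpreb1 was at 0.21 ± 0.15 (95% interval -0.17 to 0.60, adjusted p = 0.726, limma) and Vpreb2 at 0.20 ± 0.12 (-0.10 to 0.49, adjusted p = 0.669, limma) in FL let-7b relative to FL empty-vector cells. These 2 were the members whose groups stood apart, both on the higher side, against 11.8% of all probes on that side and 29.9% on either side, while 0 of the 9 stood apart on the lower side, against 18.2%. The FL arrays lie on 2 slides, each with 1 let-7b and 1 empty-vector array of the same number. Within slides the difference was 0.39 and 0.04 for Vpreb1, 0.29 and 0.10 for Vpreb2, and 0.40 and -0.06 for Vpreb3. Vpreb3 averaged 0.17 ± 0.19, Cd79a 0.00 ± 0.18 and Blnk -0.03 ± 0.14. Cd79b was at -0.30 ± 0.29, with -0.10 and -0.50 within slides, and Syk at -0.30 ± 0.27, with -0.29 and -0.32 within slides. The Btk probes were at -0.05 ± 0.16 (A_55_P1953819) and -0.04 ± 0.13 (A_55_P2158498). The median over the members was -0.03 and over all probes -0.05. The widest interval was that of Cd79b, -1.02 to 0.42.

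Other genes of the pathway were read from 3 lists. Of 32 further signal transducers, 14 were called higher and 5 lower in FL than in BM empty-vector cells, with a median of 0.38, against 39.1% and 19.8% of all probes and their median of 0.47. Pik3cd, a catalytic subunit of the lymphocyte PI3 kinase, was at 2.45 ± 0.19 (adjusted p = 0.00065, limma). Of 15 inhibitors tested, 6 were called higher and 4 lower, with a median of 0.50. The inhibitory receptors Cd72 (-1.78 ± 0.15, adjusted p = 0.000773, limma) and Fcgr2b (-1.78 ± 0.20, adjusted p = 0.00128, limma) were lower in FL than in BM empty-vector cells. Dok1 of the same list was higher, at 2.23 ± 0.26 (adjusted p = 0.0015, limma), so the inhibitors had no common direction. Of 21 transcription factors that bind or regulate the members, 8 were called higher and 5 lower, with a median of 0.32. Irf4, which acts with Irf8 downstream of the pre-B receptor, was at 2.06 ± 0.20 (adjusted p = 0.000963, limma), whereas Irf8 was at -0.99 ± 0.12 (adjusted p = 0.00143, limma). All of these named genes kept their direction with quantile scaling.

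In the same lists 0 genes were called with Lin28b and 0 with let-7b. Bank1, a B cell adaptor among the transducers, was at -1.78 ± 0.21 in FL let-7b relative to FL empty-vector cells (adjusted p = 0.0953, limma). With quantile scaling it was called lower, at -1.95 (adjusted p = 0.0419, limma). Cd72 was at 0.87 ± 0.15 in FL let-7b relative to FL empty-vector cells (adjusted p = 0.171, limma). With Lin28b, Id2, an inhibitor of E proteins, was at 0.81 ± 0.27, and the inhibitory receptor Pirb at 0.68 ± 0.29, both with an adjusted p of 1 (limma).

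Markers of other cell types were read for each comparison as signal summed over a list, relative to the 75th percentile. Between the tissues the sum for 11 myeloid markers was 37.6 to 70.0 in FL empty-vector and 13.7 to 14.4 in BM empty-vector cells. Of these 11, 5 were called higher and 1 lower, a share near the 39.1% and 19.8% of all probes. Itgam, an integrin of myeloid cells, gave 17.1 to 55.6 of the sum in FL empty-vector and 8.28 to 8.73 in BM empty-vector cells and was not called (1.86, adjusted p = 0.0537, limma). The median difference of the 11 was 1.86, against 0.47 over all probes. Of the 11, 6 were well above background on both FL empty-vector arrays and 8 on both BM empty-vector arrays. Among the others in FL empty-vector cells, Lyz2 was so on neither array, and S100a8 and S100a9 on 1 of the 2. The sum for 5 dendritic cell markers was 215 to 231 in FL empty-vector and 63.8 to 64.7 in BM empty-vector cells, most of it from Siglech, a receptor of plasmacytoid dendritic cells. Without Siglech the other 4 overlapped, with sums of 4.11 to 10.2 in FL empty-vector and 6.79 to 8.26 in BM empty-vector cells. Of the 5, 3 were called higher and 0 lower. For 10 markers of T, NK and innate lymphoid cells the sum was 9.61 to 15.3 in FL empty-vector and 2.19 to 2.31 in BM empty-vector cells. Of the 10, 6 were called higher and 1 lower. Syk, Btk and Blnk are also used by myeloid or dendritic cells, and the part of these cells in the members' differences was not tested.

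The 12 pro-B markers summed to 149 to 164 in FL empty-vector and 228 to 236 in BM empty-vector cells, with 2 called higher and 3 lower. That sum turned on Dntt, the terminal transferase that adds bases at joints of immunoglobulin genes and is known as low in fetal B cells, with 1.43 to 1.56 in FL empty-vector and 85.1 to 89.3 in BM empty-vector cells. The other 11 summed to 148 to 162 in FL empty-vector and 143 to 147 in BM empty-vector cells. With Lin28b the 12 summed to 180 to 189, against 228 to 236 in BM empty-vector cells, and without Dntt to 128 to 142, against 143 to 147. With Lin28b the dendritic markers summed to 45.7 to 54.4, against 63.8 to 64.7 in BM empty-vector cells, and the stromal markers to 25.7 to 35.7, against 18.1 to 19.7. With let-7b the stromal markers summed to 9.66 to 14.9, against 7.51 to 10.7 in FL empty-vector cells, the myeloid markers to 31.0 to 62.9, against 37.6 to 70.0, and the dendritic markers to 219 to 260, against 215 to 231. Without Siglech, the other 4 dendritic markers summed to 4.54 to 4.75 with Lin28b, against 6.79 to 8.26 in BM empty-vector cells. With let-7b these 4 summed to 12.0 to 14.8, against 4.11 to 10.2 in FL empty-vector cells. No marker of any of these lists was called with Lin28b or let-7b by limma, and their part in the member values was not tested.

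The genes whose profile over the 8 arrays was most like a member's were found by the root mean square difference between log2 levels, each centred on its own mean, among 17092 named genes. For Vpreb1 the nearest was Vpreb2 (0.072), followed by Rgs12 (0.095) and Paqr7 (0.0992). For Cd79a they included Cnp (0.0593) and Abhd17a (0.0934), and for Cd79b they were Trappc6a (0.0933), Cfap77 (0.094) and Gpi1 (0.106). Syk's were Lpxn (0.113), Tmem229b (0.115) and Btg2 (0.128), and those of the brighter Btk probe Dop1a (0.035), Tuba4a (0.0371) and Ube2m (0.038). Vpreb1 and Vpreb2 were the only members found among each other's 3 nearest genes. Transcripts of both genes are listed for the Vpreb2 probe, so the likeness may come from reading the same RNA, which was not tested. These likenesses share the split between the tissues, with its slides and scans, and carry no test.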

How the data were processed

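RNA of 8 samples of transduced pro-B cells was hybridised to 1-colour arrays. Per the file headers, the deposited values are spot intensities that Agilent Feature Extraction 9.5.3.1 had background-corrected, with probe positions in mm9. The authors also deposited a table of log2 values, with no normalization stated in any label or header used here, and it served as an alternative within a tissue. Of 44397 spots per array, 1377 control spots were left out. Levels are log2 of the processed signal minus log2 of the array's 75th percentile over the other spots, with copies of a probe averaged (399 probes were printed 10 times). Probes that fewer than 2 of the 8 arrays showed well above background (10988) and probes without a good spot on an array (31) were left out, which kept 28410.

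limma 3.58.1 (R 4.3.3) fitted 1 mean per group over all 8 arrays, probe by probe, with Benjamini-Hochberg adjustment over the 28410 and prior degrees of freedom of 1.72. Precision is limited by the number of arrays. The fit was tested on simulated data. Alternatives were quantile scaling, normexp (offset 50) with quantile scaling, other filters, 1 probe per gene, eBayes with trend and robust, the replicate number as a block, only the arrays compared, the authors' table, and each array left out in turn. The 4 BM arrays shared 1 slide and scan. The FL arrays of replicate 1 shared slide 2 and those of replicate 2 shared slide 3, so within-slide values are given for FL. Deviations of same-numbered arrays from their group means correlated at 0.51 in FL and -0.06 in BM over probes.

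The members, the pathway lists and the marker lists were chosen with earlier results of these data known. Probes were named through accessions, symbols or synonyms of a RefSeq table (GRCm38.p6), used for no probe coordinate. The genes named were every member probe, Lin28b and Rag1 as checks, the genes of smallest adjusted p per list and comparison, and the 3 nearest profiles per member, of which some are not reported here. Marker sums without their most differing gene and within-array differences with quantile scaling were added after seeing the data. Other marker lists gave these counts. Of 10 later B cell markers, 5 were called higher and 3 lower in FL than in BM empty-vector cells, of 5 erythroid markers 3 and 0, of 13 stromal markers 3 and 6, of 4 hepatocyte markers 2 and 0, and of 6 mast cell and basophil markers 1 was tested and called higher.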

Additional observations from a re-analysis of the deposited data

How the results depend on the processing

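With Lin28b and with let-7b, 0 of the 9 member probes were called under every alternative run, so no such setting changed a call. Between the tissues the count of members called was 8, and 5 with quantile scaling (4 higher and 1 lower), 6 with normexp and quantile scaling, 7 without a filter on dim probes or with only the 4 arrays compared, and 7 to 8 with an array left out. Vpreb1 turned to -0.48 with quantile scaling and -0.46 with normexp, and Blnk to -0.13 and -0.19. By construction quantile scaling shifts probes of different level by different amounts on each array, and the tissue difference varied with level. Btk A_55_P2158498 stayed at 0.33 to 0.45 with an array left out but lost its call without FL empty vector replicate 2 (adjusted p = 0.0781, limma), without either BM empty-vector array, without either BM Lin28b array, without the filter (0.0678) and with only the 4 arrays (0.113). Leaving out BM empty vector replicate 1 or 2 brought the calls over all probes to 10932 or 11093, against 16734, and with any array left out they ran up to 17464.

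With Lin28b, Vpreb3 turned to 0.03 with quantile scaling. With let-7b, Blnk turned to 0.10 with quantile scaling, 0.11 with normexp and 0.17 in the authors' table, and Btk A_55_P2158498 to 0.02 with normexp and 0.01 in the authors' table. The cause was not tested. With an array left out, the Lin28b difference ran from -0.20 to 0.09 for Vpreb3, -0.17 to 0.12 for Cd79a, -0.15 to 0.26 for Cd79b and -0.09 to 0.45 for Syk. The let-7b difference then ran from -0.15 to 0.16 for Cd79a, -0.67 to 0.07 for Cd79b, -0.17 to 0.11 for Blnk, -0.20 to 0.10 for Btk A_55_P1953819 and -0.11 to 0.03 for Btk A_55_P2158498. None of these was called.

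Over all probes, the calls with Lin28b were 1, and 4 with quantile scaling, 2 with normexp, 0 with 1 probe per gene, 2 with trend and robust, 4 in the authors' table, 2 with only the 4 BM arrays, and 0 to 1 with an array left out. With let-7b they were 7, and 76 with quantile scaling, 113 with normexp, 0 without a filter, 70 with probes well above background on all 8 arrays, 89 with trend and robust, 0 in the authors' table, 0 with only the 4 FL arrays, and 0 to 625 with an array left out, the highest without FL empty vector replicate 1. With the replicate number as a block, the calls over all probes were 0 with Lin28b and 0 with let-7b, and 8 members were still called between the tissues. The block changed no member's call, and with it the members' adjusted p with let-7b ran from 0.529 to 0.997 (limma). In FL the number is also the slide, and in BM the numbers may share nothing but a number. With 2 arrays a group, and FL arrays dimmer and more variable than BM arrays, small changes of the members could not be detected.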
